A study of Mus musculus with 8 samples.

Results

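The genes described are 9 transcription factors that direct myeloid development: the C/EBP family members Cebpa, Cebpb, Cebpd and Cebpe, the ETS factor Spi1 (PU.1), the zinc finger repressor Gfi1, the interferon regulatory factors Irf8 and Irf4, and the Krüppel-like factor Klf4. They were chosen by name, and all 9 had a probe set annotated with their symbol alone, among 22180 genes so annotated. All 9 also passed the filter on low signal that left 17576 genes for testing. Expression was measured on 8 single-colour microarrays of sorted marrow cells, taken from C57/Bl6 mice aged 8 weeks according to the labels. Multipotent progenitors (MPP, 3 arrays) were sorted as CD48+, CD150- and CD34+, short-term stem cells of the blood (ST-HSC, 3 arrays) as CD48-, CD150+ and CD34+, and long-term stem cells (LT-HSC, with arrays for replicates 1 and 3, 2 in all) as CD48-, CD150+ and CD34-. All 3 populations were Sca1+, Kit+ and lineage-negative. On treatment the labels contradict each other: each sample's description states none, while a protocol shared by all groups describes DMSO exposure followed by passage through primary and secondary transplant recipients. The series asks how Chd7 is expressed in these cells, and the same arrays give the levels of the factors below.

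Myeloid cells arise from stem cells through progenitors in which PU.1 and C/EBPα switch on receptors for myeloid cytokines and genes of the first granules. C/EBPα is needed to form granulocyte and monocyte progenitors, GFI1 favours the neutrophil fate and restrains stem cell division, and IRF8 and KLF4 favour monocytes. C/EBPε acts late, in neutrophils that fill their secondary granules, so its RNA is usually found in more mature cells than those sorted here.

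The RefSeq promoter table (GRCm38.p6) held 8 promoters of 6 of the 9 genes. The 250 bases before the annotated start are shown for the 2 members whose MPP and ST-HSC arrays did not overlap, Cebpa and Gfi1, and for Irf8, since Irf8 shares a start-site feature with Cebpa. The last 100 bases are shown for Irf4, which shares it too. Capitals mark matches to the TATA box letters TATAAA, to TTGCNNAA, a form of the C/EBP site, and to AAATCAC, a form of the GFI1 site, each searched on both strands.
Cebpa (chr7:35119043-35119292, plus strand): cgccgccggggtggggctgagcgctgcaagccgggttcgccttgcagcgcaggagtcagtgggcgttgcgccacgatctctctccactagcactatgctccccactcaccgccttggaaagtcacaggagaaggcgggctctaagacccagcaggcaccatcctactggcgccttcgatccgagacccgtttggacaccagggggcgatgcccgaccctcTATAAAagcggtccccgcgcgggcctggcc
Gfi1 (chr5:107725806-107726055, minus strand): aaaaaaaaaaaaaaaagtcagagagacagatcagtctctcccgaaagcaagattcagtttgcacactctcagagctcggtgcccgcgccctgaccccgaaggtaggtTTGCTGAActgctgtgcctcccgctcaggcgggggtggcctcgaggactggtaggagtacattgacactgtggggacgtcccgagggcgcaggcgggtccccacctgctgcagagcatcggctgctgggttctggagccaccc
Irf8 (chr8:120736108-120736357, plus strand): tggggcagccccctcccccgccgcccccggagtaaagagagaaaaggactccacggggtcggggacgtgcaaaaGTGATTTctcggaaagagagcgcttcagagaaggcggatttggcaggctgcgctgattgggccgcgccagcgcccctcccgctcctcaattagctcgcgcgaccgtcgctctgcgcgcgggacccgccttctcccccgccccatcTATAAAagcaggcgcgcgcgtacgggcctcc
Irf4 (chr13:30749133-30749232, plus strand): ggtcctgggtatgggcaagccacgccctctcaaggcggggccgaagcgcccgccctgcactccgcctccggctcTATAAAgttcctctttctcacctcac
TATAAA began at position -30 relative to the start in Cebpa, -31 in Irf8 and -26 in Irf4. It was thus in 3 of the 8 member promoters, from 3 of the 6 genes, and on either strand in 12.4% of the 32851 promoters in the table. TTGCNNAA was present in 1 of the 8 member promoters, as TTGCTGAA in Gfi1, and in 9.56% of all promoters. AAATCAC was present in Irf8 alone, read on the other strand as GTGATTT, and in 2.75% of all promoters. The PU.1 form GAGGAAG and the composite site of ETS and IRF factors were in none of the 8, and in 10.6% and 2.3% of all promoters. The E-box CACGTG was in the Klf4 promoter and in 6.02% of all, and the short KLF form CACCC was in 4 of the 8 member promoters and in 52% of all. No motif spelled here overlapped another within the printed sequences. A match of letters is a description of the sequence and not evidence that a factor binds there.

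Cebpa was higher on every MPP array than on any stem cell array, and Gfi1 was lower on every ST-HSC array than on any other. Of all tested genes, 14.1% were higher without overlap in MPP than in LT-HSC, and 7.75% in MPP than in ST-HSC. In ST-HSC 9.50% were lower without overlap than in LT-HSC. The share of genes set apart from both other populations at once was not counted. No member passed the threshold over all genes in any comparison with limma as designed. Levels are log2 RMA signals. A difference written MPP over LT-HSC is the log2 mean in MPP minus that in LT-HSC, fitted with limma and given with its standard error (SE), and likewise for the other pairs. Genes whose adjusted p (Benjamini-Hochberg over the 17576 genes) lay under 0.05 count as called. Nothing in the labels ties the arrays to separate animals, and the p-values then reflect the spread between these samples alone, which may be technical. In MPP over LT-HSC 0 of 9 members were called by limma, against 0.125% of all tested genes, and 2 (Cebpa and Cebpd) had an unadjusted p under 0.05, against 10.6%. In ST-HSC over LT-HSC 0 were called against 0.933%, with 2 (Cebpd and Gfi1) at an unadjusted p under 0.05 against 11.1%. In MPP over ST-HSC 0 were called against 0.193%, with 2 (Cebpa and Gfi1) at an unadjusted p under 0.05 against 6.89%. The F test over the 3 populations called 0 against 0.905%, with 2 (Cebpa and Gfi1) at an unadjusted p under 0.05 against 10.5%. In bulk samples, fewer cells that express a gene and less RNA per cell cannot be told apart.

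**Figure D1:**
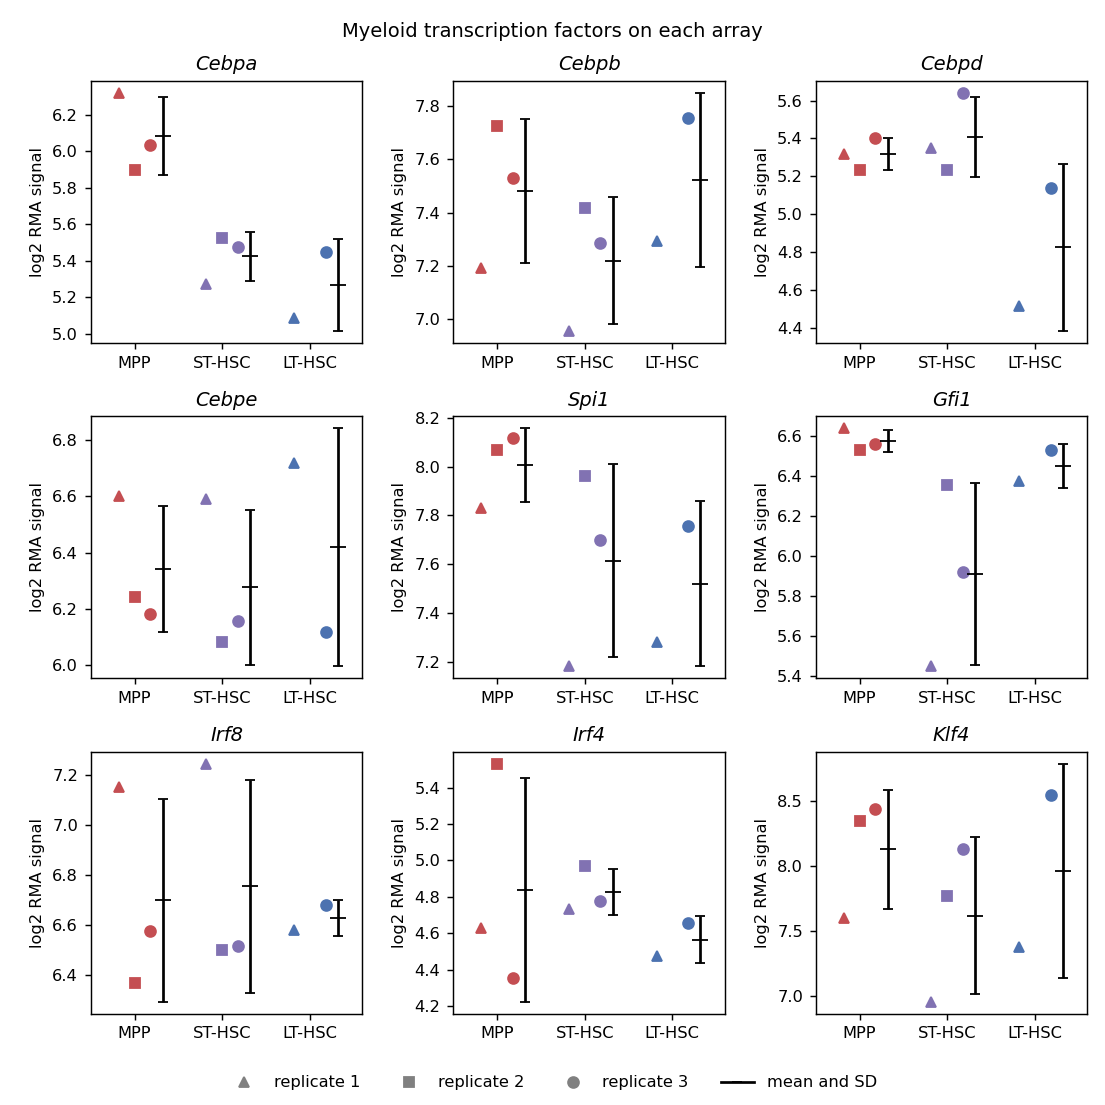
Log2 RMA signal (vertical axis, own scale per panel) of each of the 9 factors on each array, grouped as MPP, ST-HSC and LT-HSC, with marker shape giving the replicate number and black bars the mean and SD. The 3 MPP arrays of Cebpa lie between 5.90 and 6.32, above all ST-HSC and LT-HSC arrays, whereas Cebpe is highest on the replicate 1 array of each population.

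A pair of arrays stood apart from the others. LT-HSC replicate 1 and ST-HSC replicate 1 had the lowest median correlations with the other arrays, 0.956 and 0.968, where the rest lay between 0.976 and 0.985, and the narrowest interquartile ranges, 2.49 and 2.73, where the rest lay between 2.82 and 3.06. All 14 tested markers of mature granulocytes were highest on the replicate 1 array in each population, as were 860 genes in all, 4.89% of those tested. Their mean log2 signal was 6.58 on the replicate 1 array and 5.52 and 5.59 on the others in MPP. It was 7.30 against 5.49 and 5.10 in ST-HSC, and 6.90 against 4.90 in LT-HSC. Monocyte and macrophage markers had 7 of 14 members highest on each replicate 1 array, erythroid markers 5 of 7, stroma and endothelium markers 4 of 8, B and plasma cell markers 2 of 8, dendritic cell markers 1 of 10 and T and NK cell markers 0 of 8. None of the 7 marker lists had a gene called in any comparison or in the F test. No marker can be given as absent, since log2 RMA signals have no zero.

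Cebpa encodes C/EBPα, the factor that opens granulocyte and monocyte development. It read 6.32, 5.90 and 6.03 in MPP replicates 1, 2 and 3, then 5.27, 5.53 and 5.47 in ST-HSC, and 5.09 and 5.45 in LT-HSC replicates 1 and 3. Every MPP array exceeded every stem cell array, while the ST-HSC and LT-HSC arrays overlapped. The means were 6.08 ± 0.21 in MPP (SD, n = 3), 5.42 ± 0.14 in ST-HSC (SD, n = 3) and 5.27 ± 0.25 in LT-HSC (SD, n = 2). The MPP over LT-HSC difference was 0.82 (SE 0.20, limma adjusted p = 0.188), a 1.76-fold higher signal with a 95% interval of 1.31 to 2.38. The MPP over ST-HSC difference was 0.66 (SE 0.18, limma adjusted p = 0.221), or 1.58-fold with an interval of 1.21 to 2.07. These intervals are those of a single comparison, not adjusted for the number of genes. ST-HSC over LT-HSC was 0.16 with an interval of -0.28 to 0.59 (limma adjusted p = 0.804). Without LT-HSC replicate 3, where LT-HSC is the single array of narrowest range, MPP over LT-HSC was 0.99. The same difference was 0.64 without LT-HSC replicate 1, 0.70 without MPP replicate 1 and 0.52 without all replicate 1 arrays. With array weights Cebpa passed for MPP over ST-HSC (limma adjusted p = 0.0251, range over alternatives 0.0251 to 0.642) and in the F test (0.0389, range 0.0389 to 0.402). Array weights called 525 genes in all for MPP over ST-HSC, against 34 as designed, and 386 in the F test, against 159.

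Cebpd, a relative induced by inflammatory signals, was lowest in LT-HSC, with the arrays of that population far apart. It read 5.32, 5.23 and 5.40 in MPP, 5.35, 5.23 and 5.64 in ST-HSC and 4.51 and 5.14 in LT-HSC. All MPP and ST-HSC arrays exceeded both LT-HSC arrays, and LT-HSC replicate 1 lay well below the rest. MPP over LT-HSC was 0.49 (SE 0.22, limma adjusted p = 0.461), and ST-HSC over LT-HSC was 0.58 (SE 0.22, limma adjusted p = 0.348). Without LT-HSC replicate 1 they were 0.18 and 0.27, and without LT-HSC replicate 3 they were 0.81 and 0.90, each time with 1 LT-HSC array left. ST-HSC over LT-HSC passed, at 0.67, when fitted on ST-HSC and LT-HSC alone with the replicate number as a block (limma adjusted p = 0.0417). That fit called 1128 of the 17576 genes, against 164 as designed. LT-HSC has no replicate 2, so the difference in that fit rested on replicates 1 and 3, for which the labels state no pairing. MPP over ST-HSC was -0.09 with an interval of -0.51 to 0.34.

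Cebpb encodes C/EBPβ, which drives the rapid granulocyte output of infection. It read 7.19, 7.73 and 7.53 in MPP, 6.96, 7.42 and 7.29 in ST-HSC and 7.29 and 7.75 in LT-HSC. The 3 populations overlapped, and the replicate 1 array was the lowest in each. Its differences were -0.04 for MPP over LT-HSC, -0.30 for ST-HSC over LT-HSC and 0.26 for MPP over ST-HSC, with limma adjusted p = 0.951, 0.656 and 0.994. Leaving out LT-HSC replicate 1 put ST-HSC over LT-HSC at -0.53, leaving out LT-HSC replicate 3 put it at -0.07, and leaving out ST-HSC replicate 1 put it at -0.17. MPP over ST-HSC was 0.13 without ST-HSC replicate 1, 0.41 without MPP replicate 1 and 0.14 without MPP replicate 2.

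Cebpe encodes C/EBPε of late neutrophil maturation, and its pattern followed the replicate number rather than the population. It read 6.60 in MPP replicate 1, against 6.24 and 6.18 in replicates 2 and 3. In ST-HSC it read 6.59 in replicate 1 and 6.08 and 6.16 in the others, and in LT-HSC 6.72 in replicate 1 and 6.12 in replicate 3. No replicate 1 array overlapped any other array. The population differences were -0.08, -0.14 and 0.07 for MPP over LT-HSC, ST-HSC over LT-HSC and MPP over ST-HSC (limma adjusted p = 0.907, 0.864 and 0.999), each within the spread between replicates. With all replicate 1 arrays left out, MPP over ST-HSC was 0.09 and LT-HSC was reduced to 1 array. The mature granulocyte markers moved with Cebpe across these arrays, as given above, and their part in its values was not tested.

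Irf8 encodes a factor of monocyte and dendritic cell fate, and 2 probe sets carried its symbol alone. The one with the higher mean read 7.15, 6.36 and 6.58 in MPP, 7.24, 6.50 and 6.51 in ST-HSC and 6.58 and 6.68 in LT-HSC. Replicate 1 was the highest array in MPP and in ST-HSC but not in LT-HSC. The other probe set read 5.77, 5.37 and 5.54 in MPP, 5.67, 5.59 and 5.41 in ST-HSC and 5.81 and 5.18 in LT-HSC, so it was highest on the replicate 1 array of all 3 populations. The probe sets therefore disagreed on LT-HSC. For the probe set used, MPP over LT-HSC was 0.07 with an interval of -0.54 to 0.68, ST-HSC over LT-HSC 0.13 with -0.49 to 0.74, and MPP over ST-HSC -0.06 with -0.60 to 0.49 (limma adjusted p = 0.929, 0.9 and 0.999).

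**Figure D2:**
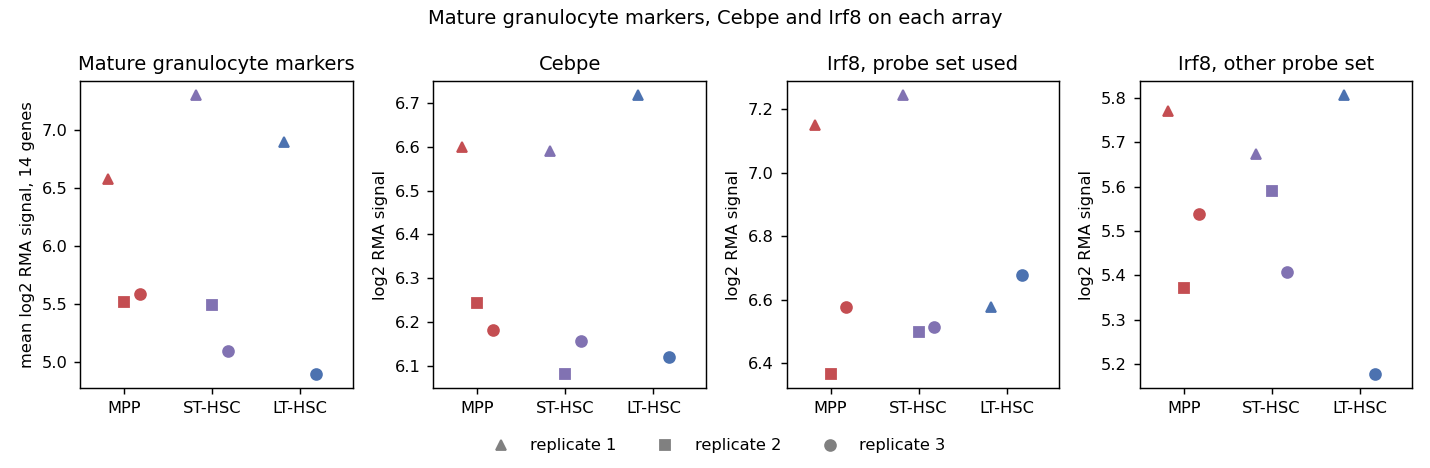
Mean log2 RMA signal of 14 mature granulocyte markers, and log2 RMA signals of Cebpe and of both Irf8 probe sets (vertical axes, own scale per panel), on each array of MPP, ST-HSC and LT-HSC, with marker shape giving the replicate number. Triangles, the replicate 1 arrays, are on top in each population for the markers, Cebpe and the second Irf8 probe set, but not for the first Irf8 probe set in LT-HSC, where replicate 1 read 6.58 and replicate 3 read 6.68.

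Spi1 encodes PU.1, the ETS factor on which all myeloid and B cell development depends. It read 7.83, 8.07 and 8.12 in MPP, 7.18, 7.96 and 7.70 in ST-HSC and 7.28 and 7.76 in LT-HSC. All MPP arrays exceeded both LT-HSC arrays, MPP overlapped ST-HSC, and replicate 1 was the lowest array in each population. MPP over LT-HSC was 0.49 (SE 0.24, limma adjusted p = 0.508), MPP over ST-HSC 0.39 (SE 0.22, limma adjusted p = 0.871) and ST-HSC over LT-HSC 0.09 (SE 0.24, limma adjusted p = 0.919). MPP over LT-HSC was 0.25 without LT-HSC replicate 1, and MPP over ST-HSC was 0.18 without ST-HSC replicate 1, the arrays that stood apart. ST-HSC over LT-HSC turned to -0.04 with quantile normalization.

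Gfi1, a zinc finger repressor that opposes PU.1, was lowest in ST-HSC, where it was also the most variable. It read 6.64, 6.53 and 6.56 in MPP, 5.45, 6.36 and 5.92 in ST-HSC and 6.38 and 6.53 in LT-HSC. All ST-HSC arrays lay below all others, although ST-HSC replicate 2 and LT-HSC replicate 1 nearly met. MPP replicate 2 and LT-HSC replicate 3 were closer still, at 6.533 and 6.530. The SD was 0.45 in ST-HSC (n = 3), against 0.06 in MPP (n = 3) and 0.11 in LT-HSC (n = 2). MPP over ST-HSC was 0.67 (SE 0.21, limma adjusted p = 0.366), a 1.59-fold higher signal with an interval of 1.15 to 2.20. ST-HSC over LT-HSC was -0.54 (SE 0.24, limma adjusted p = 0.433), and MPP over LT-HSC was 0.12 (SE 0.24, limma adjusted p = 0.843). Without ST-HSC replicate 1, one of the arrays that stood apart, the first 2 differences were 0.44 and -0.31. Fitted on ST-HSC and LT-HSC alone with the replicate number as a block, ST-HSC over LT-HSC was -0.77 and passed (limma adjusted p = 0.0153, range over alternatives 0.0153 to 0.796). That fit called 1128 of the 17576 genes, against 164 as designed. LT-HSC has no replicate 2, so ST-HSC replicate 2, the ST-HSC array closest to LT-HSC, did not enter that difference. It rested on replicates 1 and 3, for which the labels state no pairing.

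Irf4, a factor of lymphocyte activation, plasma cells and some dendritic cells, had a mean signal at the 44.7th percentile of all probe sets. It read 4.63, 5.53 and 4.36 in MPP, 4.73, 4.97 and 4.78 in ST-HSC and 4.47 and 4.66 in LT-HSC. MPP replicate 2 was higher than all other arrays, and the ST-HSC arrays exceeded the LT-HSC arrays. Its MPP over LT-HSC difference of 0.27 (limma adjusted p = 0.717) was -0.07 without MPP replicate 2, and its MPP over ST-HSC difference of 0.01 was -0.33. ST-HSC over LT-HSC was 0.26 (limma adjusted p = 0.774), or 0.17 without LT-HSC replicate 1.

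Klf4 encodes a Krüppel-like factor of monocyte differentiation. It read 7.60, 8.35 and 8.44 in MPP, 6.96, 7.77 and 8.13 in ST-HSC and 7.38 and 8.55 in LT-HSC. Replicate 1 was the lowest array in each population, and the spread within populations, with SDs of 0.46, 0.60 and 0.83 in MPP, ST-HSC and LT-HSC, was the widest of the 9 genes in LT-HSC. Its differences were 0.17, -0.34 and 0.51 for MPP over LT-HSC, ST-HSC over LT-HSC and MPP over ST-HSC. The intervals ran from -0.72 to 1.06, -1.23 to 0.55 and -0.29 to 1.31 (limma adjusted p = 0.876, 0.787 and 0.979). Without ST-HSC replicate 1, MPP over ST-HSC was 0.18 and ST-HSC over LT-HSC was -0.01. MPP over ST-HSC was 0.77 without either ST-HSC replicate 3 or MPP replicate 1. Without LT-HSC replicate 1, MPP over LT-HSC was -0.42 and ST-HSC over LT-HSC was -0.93, and without LT-HSC replicate 3 they were 0.75 and 0.24.

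**Figure D3:**
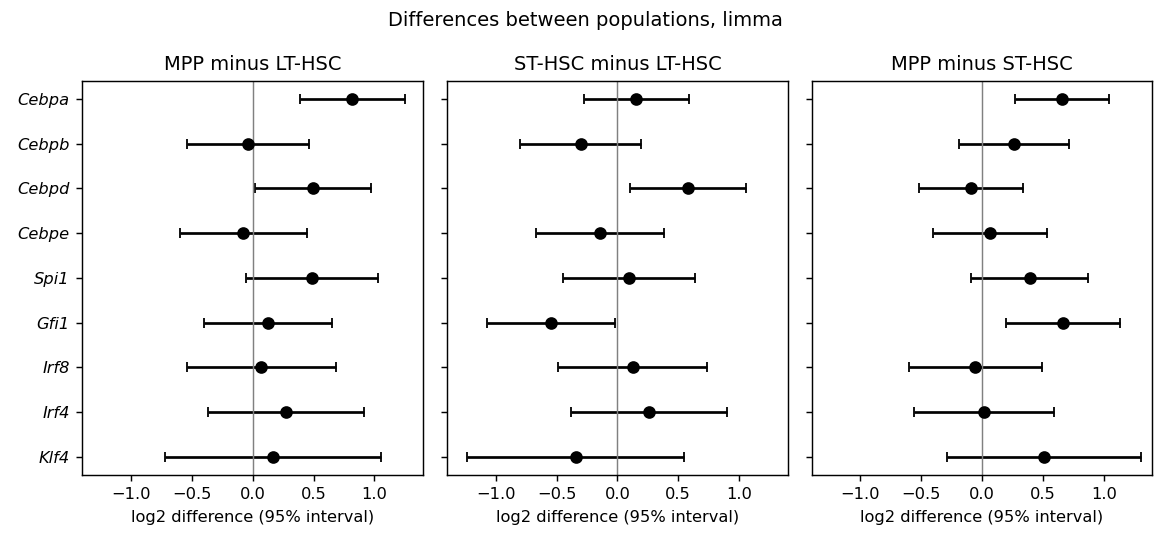
Differences of log2 RMA means (horizontal axis) for the 9 factors in the 3 comparisons, with limma's 95% intervals for single comparisons as bars. The intervals of Cebpa exclude 0 for MPP over LT-HSC (0.38 to 1.25) and MPP over ST-HSC (0.27 to 1.05), those of Gfi1 exclude 0 in both comparisons with ST-HSC and those of Cebpd in both with LT-HSC, while no member passed after adjustment over all genes.

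Across the members, 4 of 9 (Cebpa, Cebpd, Spi1 and Gfi1) were higher on all MPP arrays than on both LT-HSC arrays, against 14.1% of all tested genes, and 0 were lower throughout, against 10.5%. Gfi1 entered this count narrowly, with MPP replicate 2 at 6.533 and LT-HSC replicate 3 at 6.530. Between ST-HSC and LT-HSC, 2 (Cebpd and Irf4) were higher without overlap against 13.8% of genes, and 1 (Gfi1) was lower against 9.50%. Between MPP and ST-HSC, 2 (Cebpa and Gfi1) were higher without overlap against 7.75% of genes, and 0 were lower against 6.43%. The median difference of the 9 was 0.17 for MPP over LT-HSC, 0.09 for ST-HSC over LT-HSC and 0.26 for MPP over ST-HSC, where the medians of all genes were 0.06, 0.02 and 0.01. The members' median for MPP over LT-HSC was 0.29 with median centring and 0.04 with quantile normalization, where the medians of all genes were 0.18 and 0.05. For MPP over LT-HSC 7 of the 9 differences were positive as deposited, 9 with median centring and 5 with quantile normalization, against 57.2% of all genes as deposited. For ST-HSC over LT-HSC 5, 5 and 4 differences were positive, against 52% of genes as deposited. The members' median there was 0.21 with median centring and turned to -0.04 with quantile normalization, where all genes had 0.13 and 0.03. For MPP over ST-HSC 7 differences were positive under all 3 scalings, against 51.7% of genes as deposited. The share of all genes with a positive difference was not computed under the other scalings, so those member counts have no matching share.

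Deviations from group means correlated at 0.15, 0.23 and 0.21 for MPP and ST-HSC arrays of replicates 1, 2 and 3. MPP and ST-HSC arrays of different numbers gave -0.28 to 0.07, but MPP replicate 2 and LT-HSC replicate 1 gave 0.22. The same-number differences are given as well, although the labels state no pairing. The pairs were chosen from these same data, which limits what the counts below can show. MPP exceeded ST-HSC in all 3 pairs for 6 of the 9 members (Cebpa, Cebpb, Cebpe, Spi1, Gfi1 and Klf4), against 17.0% of all genes, and fell below it in all 3 for 0, against 14.5%. The 3 differences were 1.05, 0.37 and 0.56 for Cebpa in replicates 1, 2 and 3. They were 1.19, 0.17 and 0.64 for Gfi1, 0.65, 0.11 and 0.42 for Spi1, and 0.64, 0.57 and 0.31 for Klf4. Those of Cebpb were 0.23, 0.31 and 0.24, close to each other although its levels varied more between replicates. Those of Cebpe, at 0.01, 0.16 and 0.02, were near 0. With the replicate number as a block on all arrays, 0 of the 9 members were called in MPP over ST-HSC, against 1.52% of all genes with that block.

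Correlations between members were mixed in sign. Over the 8 arrays, which share populations, replicate numbers and array quality, Pearson's r between members ran from -0.78 to 0.89 with a median of 0.15 over 36 pairs, 22 of them positive and 14 negative. Cebpb and Klf4 were the most alike (r = 0.89, Spearman's rho 0.86, and r = 0.73 without the 2 arrays farthest from the Cebpb median). Spi1 and Klf4 had r = 0.78 (rho 0.64), which was 0.18 without LT-HSC replicate 1 and ST-HSC replicate 1, so it rested on those arrays. Cebpa and Spi1 had r = 0.73 (rho 0.81), or 0.88 without MPP replicates 1 and 3. Cebpe ran opposite to Klf4 (r = -0.78, rho -0.62, and -0.78 without LT-HSC replicate 1 and MPP replicate 1). Cebpb, Spi1 and Klf4 were lowest on the replicate 1 array of each population, 3 of 9 members against 10.6% of all genes.

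Genes with the most similar profiles over the 8 arrays were taken by Pearson's r among the tested genes, as a description of these arrays. For Cebpa they were Oas2 (r = 0.99), Tnfaip8l2 (0.98) and Dennd4b (0.98), which kept r of 0.96, 0.95 and 0.94 without MPP replicates 1 and 3. For Cebpe they were Pde6g (0.97), Ltf (0.96), which encodes the secondary granule protein lactoferrin, and the monocyte chemokine receptor Ccr2 (0.95), at 0.97, 0.98 and 0.88 without LT-HSC replicate 1 and MPP replicate 1. For Irf8 they were the transferrin receptor Tfrc (0.98), Atp1b2 (0.97) and the pyruvate kinase Pklr (0.97), at 0.84, 0.90 and 0.60 without the replicate 1 arrays of MPP and ST-HSC. The nearest gene was Ptpn1 for Spi1 (0.99), Dennd1c for Gfi1 (0.98), Psmd12 for Cebpd (0.99), Dmxl2 for Cebpb (0.97), Ip6k1 for Klf4 (0.98) and Itga3 for Irf4 (0.96). Without the 2 arrays farthest from each member's median, these were 0.95, 0.93, 0.92, 0.93, 0.95 and 0.74.

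Genes around these factors were read from other lists. Among 15 receptors and surface proteins of myeloid cells that PU.1 or C/EBP factors are known to act on or that mark their progeny, 12 had a positive MPP over LT-HSC difference, against 57.2% of all tested genes, and 13 a positive MPP over ST-HSC difference, against 51.7%. The medians were 0.55 and 0.34, where those of all genes were 0.06 and 0.01. At an unadjusted p under 0.05 stood 8 of the 15 in MPP over LT-HSC, against 10.6% of all tested genes, and 7 in MPP over ST-HSC, against 6.89%. In MPP over ST-HSC 1 of the 15 was called, against 0.193% of all tested genes, and in MPP over LT-HSC 0 were, against 0.125%. Cd33, a sialic acid-binding receptor of myeloid cells, rose in MPP against ST-HSC by 1.38 (SE 0.20, limma adjusted p = 0.0251). Cd33 was also called in the F test (limma adjusted p = 0.0162), but not in MPP over LT-HSC (1.09, SE 0.22, limma adjusted p = 0.133). It read 7.85, 7.37 and 7.23 in MPP, 6.28, 6.07 and 5.95 in ST-HSC and 6.24 and 6.55 in LT-HSC, with every MPP array above all others. The call against ST-HSC was kept in 14 of 20 alternatives and lost with median centring (limma adjusted p = 0.0892). It was also lost when ST-HSC replicate 2 (0.116), ST-HSC replicate 3 (0.142), MPP replicate 1 (0.0576), MPP replicate 2 (0.0951) or MPP replicate 3 (0.077) was left out, at differences between 1.20 and 1.51.

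The genes of that list with the highest signal did not pass. Csf3r, the receptor for granulocyte colony-stimulating factor and a C/EBPα target, averaged 8.39 ± 0.18 in MPP (SD, n = 3), 7.37 ± 0.36 in ST-HSC (SD, n = 3) and 7.35 ± 0.76 in LT-HSC (SD, n = 2). Its MPP differences were 1.04 against LT-HSC and 1.01 against ST-HSC (limma adjusted p = 0.276 and 0.231). Flt3, the receptor that marks progenitors leaving the stem cell state, read 9.80, 9.43 and 9.45 in MPP, 7.19, 7.17 and 6.86 in ST-HSC and 5.84 and 8.49 in LT-HSC. All MPP arrays exceeded the rest, and the LT-HSC arrays lay farther apart than the population means of ST-HSC and MPP. Its differences were 2.39 for MPP over LT-HSC and 2.49 for MPP over ST-HSC (limma adjusted p = 0.17 and 0.0893).

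**Figure D4:**
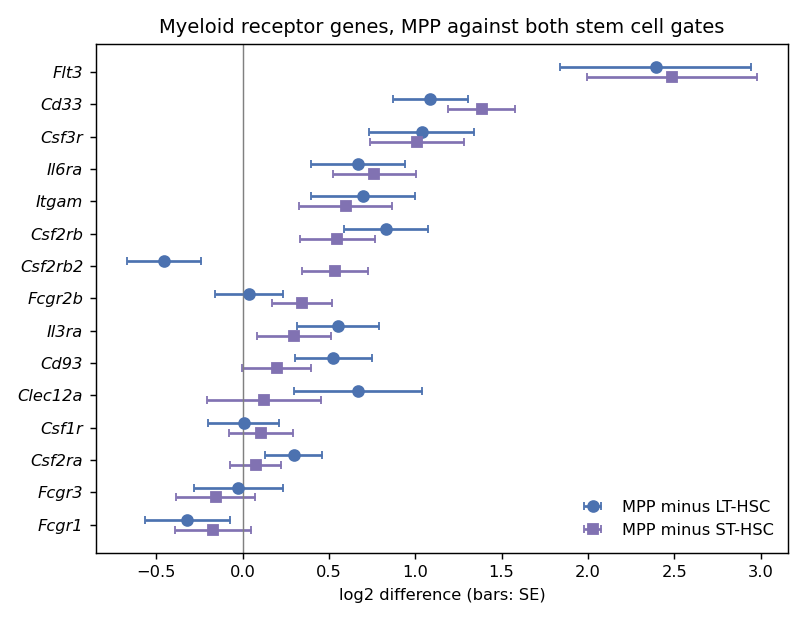
Differences of log2 RMA means (horizontal axis, bars give limma's SE) for 15 myeloid receptor and surface genes, with circles for MPP over LT-HSC and squares for MPP over ST-HSC. Differences are positive for 12 genes against LT-HSC and 13 against ST-HSC, and Cd33 (1.38) is the gene called, against ST-HSC.

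Among 21 tested ETS, RUNX and other partner factors, 0 were called in a pairwise comparison and 1 in the F test, against 0.905% of all tested genes. Maf, a bZIP factor of macrophages, averaged 6.49 ± 0.18 in MPP (SD, n = 3), 5.17 ± 0.48 in ST-HSC (SD, n = 3) and 5.86 ± 0.07 in LT-HSC (SD, n = 2) (F test, limma adjusted p = 0.0467). It kept that call in 6 of 18 alternatives. The call was lost, among others, when any MPP array (0.0906, 0.141 and 0.197 without replicates 1, 2 and 3), ST-HSC replicate 2 (0.0941), ST-HSC replicate 3 (0.146) or LT-HSC replicate 1 (0.0915) was left out. Jun and Egr1, with the highest signal in this list, gave 0.19 and 0.48 for MPP over ST-HSC (limma adjusted p = 0.999 and 0.949). The 7 tested C/EBP relatives and regulators, the 7 GFI1 paralog and co-repressor genes and the 14 IRF and KLF relatives had 0 calls in all 3 comparisons and the F test, as did 8 early granule genes. At an unadjusted p under 0.05 these had 1, 0, 0 and 2 genes in MPP over LT-HSC, against 10.6% of all tested genes. They had 0, 0, 0 and 4 in ST-HSC over LT-HSC, against 11.1%, and 2, 1, 0 and 0 in MPP over ST-HSC, against 6.89%. Cebpg, the C/EBP relative that lacks an activating domain, had an MPP over LT-HSC difference of 0.50 (limma adjusted p = 0.473). Ddit3 differed by 0.29, Hdac1 by 0.34, Hdac2 by 0.12, Irf2 by 0.06 and Klf6 by 0.33 (limma adjusted p from 0.473 to 0.92 over these 6 genes). The early granule genes Mpo and Lyz2 differed by 0.53 and -0.13 in that comparison (limma adjusted p = 0.527 and 0.77). The median ST-HSC over LT-HSC difference of the early granule genes was 0.62, with 8 of 8 positive, against 0.02 and 52% for all tested genes. Highest on each replicate 1 array were 4 of the 8, against 4.89%, like the mature granulocyte markers, whose median in this comparison was 0.005. The mean of the early granule genes was 8.865 in ST-HSC and 8.312 in LT-HSC for replicate 1, and 8.681 and 8.110 for replicate 3. The part of mature granulocytes in these values was not tested.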

How the data were processed

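The deposited table held log2 RMA values for 33649 probe sets on 8 arrays; RMA is named in the submitters' processing notes, its version and software are not given in the sources used here, and the values (2.05 to 12.94) were taken as log2 from their range. Per the labels' protocols, RNA was extracted with Trizol and amplified and biotin-labelled using kits named Encore Biotin and Ovation Pico WTA V2. Probe sets with exactly 1 symbol in the platform annotation numbered 23521, with several 1814 and unnamed 8314; where a gene had several, the one with the highest mean was used. Genes with a mean at or above the 25th percentile of probe sets (3.88) were tested, 17576 in all, with limma 3.58.1 in R 4.3.3, 1 mean per population, a shared spread (5 residual and 5.93 prior degrees of freedom) and Benjamini-Hochberg adjustment; the fit was tested on simulated data. In those data a log2 change of 1 was set in MPP for 200 genes. The fit recovered 31% of them in MPP over LT-HSC and 45% in MPP over ST-HSC, so many changes of that size would be missed. No signal over background was analysed here, and the number of arrays limits the precision. No column was left unused.

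The members, the 13 other lists (158 entries, 148 matched, 141 tested) and the tests were chosen with earlier results of these data known. Genes named were all members and, from each list, the called genes and the 2 with the highest mean among the uncalled (for the marker lists only the lists' values are given), plus the 3 most similar profiles per member, of which the nearest is given for 6. Deviations from group means correlated at 0.15, 0.23 and 0.21 for MPP and ST-HSC arrays of replicates 1, 2 and 3. Same-number differences were given on that basis, although the labels state no pairing. These weak correlations cannot establish one, since deviations from the mean of a group's arrays balance each other. Alternatives were other filters, scalings, probe set rules, priors, weights, blocks and left-out arrays. The use of Irf8's other probe set was chosen after seeing the data.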

Additional observations from a re-analysis of the deposited data

How the results depend on the processing

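No member was called by limma in any of the 3 comparisons or the F test, and this count of 0 held in every alternative but these. It was 1 with array weights in MPP over ST-HSC and in the F test (Cebpa both times). Leaving out 1 array gave 0 to 1 in MPP over LT-HSC (Cebpa) and 0 to 1 in ST-HSC over LT-HSC (Cebpd), each without LT-HSC replicate 3. With only the 2 populations and the replicate block it was 2 in ST-HSC over LT-HSC (Cebpd at 0.67 and Gfi1 at -0.77). ST-HSC replicate 2, without an LT-HSC array of its number, did not enter those differences. Pairing by replicate number changed no other call of a member. For LT-HSC only replicates 1 and 3 exist, and same-number correlations of deviations were 0.54 and 0.48 with ST-HSC and -0.16 and 0.10 with MPP. The deviations of 2 arrays mirror each other, as in 0.54 and -0.54 for LT-HSC replicates 1 and 3 with ST-HSC replicate 1. These values therefore cannot decide a pairing. LT-HSC numbers were not taken as pairs, although the values with ST-HSC exceeded those used to pair MPP with ST-HSC. Irf4 was not tested with the filter at the 50th percentile.

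Calls over all genes ranged more widely, from 5 to 615 in MPP over LT-HSC (22 as designed), 0 to 1128 in ST-HSC over LT-HSC (164), 1 to 525 in MPP over ST-HSC (34) and 29 to 566 in the F test (159). The lowest and highest came from median centring and from leaving out LT-HSC replicate 3 in the first, and from leaving out both arrays that stood apart and from the replicate block on 2 populations in the second. In the third they came from median centring or leaving out MPP replicate 2, MPP replicate 3 or ST-HSC replicate 3, and from array weights. In the F test they came from leaving out ST-HSC replicate 3 and from the replicate block. Median centring moved the median difference of all genes to 0.18 for MPP over LT-HSC (0.06 as deposited) and to 0.13 for ST-HSC over LT-HSC (0.02 as deposited).

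Small uncalled differences changed sign. In MPP over LT-HSC, median centring gave Cebpb 0.0821 and Cebpe 0.046, quantile normalization Irf8 -0.0496 and Klf4 -0.0234, and the replicate block on 2 populations Irf4 -0.0727. Without both arrays that stood apart Cebpe was 0.22 and Klf4 -0.42, and without all replicate 1 arrays Cebpe was 0.0932, Irf8 -0.21 and Klf4 -0.15. In ST-HSC over LT-HSC, Spi1 was -0.0444 with quantile normalization, -0.0786 with the replicate block on 2 populations and -0.0075 with it on all arrays, and Irf8 -0.0438 with array weights. With either set of replicate 1 arrays left out Cebpe was 0.0001 and Irf8 -0.17. In MPP over ST-HSC, array weights gave Irf8 0.0743 and Irf4 -0.29, leaving out both arrays that stood apart gave Irf8 0.19 and Irf4 -0.0346, and the other Irf8 probe set gave 0.0019. Leaving out 1 array turned some signs. In MPP over LT-HSC the ranges were -0.27 to 0.19 for Cebpb, -0.38 to 0.22 for Cebpe, -0.16 to 0.24 for Irf8, -0.0727 to 0.51 for Irf4 and -0.42 to 0.75 for Klf4. In ST-HSC over LT-HSC they were -0.0226 to 0.33 for Cebpa, -0.44 to 0.16 for Cebpe, -0.14 to 0.33 for Spi1, -0.12 to 0.25 for Irf8 and -0.93 to 0.24 for Klf4. In MPP over ST-HSC they were -0.18 to 0.0272 for Cebpd, -0.0631 to 0.22 for Cebpe, -0.28 to 0.19 for Irf8 and -0.33 to 0.25 for Irf4. The cause was not tested. Cebpa and Gfi1 stayed positive in MPP over ST-HSC in all alternatives, from 0.47 to 0.75 and from 0.41 to 0.89. The number of arrays limits what can be called, and signal over background was not used here.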
